A study of Danio rerio with 48 samples.

Results

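The genes described here encode the proteins of the complement and coagulation systems, the serpins that hold those proteins in check, and plasminogen. They were picked by gene name from the 25377 genes of the deposited zebrafish count table, and 57 names matched. Of these, 55 belong to the families by function. The other names, cfdp1 and proca1, matched by spelling only and are no complement or coagulation genes; they stay in every count below and are named where they matter. Reads were enough to test 51 of the 57, and c3a.4, c3a.5, cfhl3, cfhl5, f13a1a.1 and serpina7 (at most 8.27 reads in any pool) were not tested.

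Complement is a cascade of plasma proteases that meets on C3, whose cleavage marks a surface for uptake and starts the terminal components C5 to C9, which assemble into a pore. Coagulation is a parallel cascade in which factors VII, IX and X lead to thrombin, which cuts fibrinogen into fibrin, while protein C and several serpins act as brakes and plasmin dissolves the clot. In vertebrates most of these proteins are made and secreted by hepatocytes, and their transcripts are commonly read as a mark of liver maturation in larvae. Tissue factor, properdin, factor VIII and the factor XIII A subunit are known from mammals as products mainly of other cells.

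Transcripts were counted in pools of 15 heads of mixed wild-type zebrafish larvae, cut in front of the swim bladder, in a study of the molecular events that go with the effects of perfluoroalkyl compounds on swimming in light and dark. Larvae were kept in 0.88, 1.57 or 2.8 µM PFOS (perfluorooctane sulfonic acid, a long-lived fluorinated industrial compound) or in vehicle, and every group, controls included, held 0.4% dimethyl sulfoxide (DMSO). Heads were taken at 4 or 5 days post fertilisation (dpf), giving 8 groups of 6 pools and 48 libraries. Nothing in the labels ties a pool to a clutch, so the p-values below rest on the spread among the 6 pools of a group, which may be technical.

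Libraries held 14475198 to 28926584 counts, and 20021 genes were tested. Of the 48, 3 libraries correlated less with the others of their age (median r 0.915 to 0.941, against 0.959 or more elsewhere), and leaving them out moved no count of called genes among the 51 by more than 1.5 times. Levels are in CPM (counts scaled to library size) and were not compared between genes, since the table gives no transcript lengths. The call for a gene is an adjusted p (Benjamini-Hochberg over all 20021 genes) under 0.05 in edgeR's quasi-likelihood test.

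The hepatocyte markers stand first because the heads were not livers. The mean log2 CPM of 18 hepatocyte markers (fabp10a, tfa, ttr and others, none of them among the 57) was 1.00 ± 0.77 (SD, n = 24 pools) at 4 dpf and 4.08 ± 0.67 (n = 24) at 5 dpf. It ran from -0.39 to 2.24 at 4 dpf and from 2.85 to 5.45 at 5 dpf, so the ages did not overlap. Their summed level was 59.5 to 498 CPM at 4 dpf and 577 to 2630 CPM at 5 dpf. Of these 18 markers, 18 rose with age (median log2 fold change 3.26). More liver cells in a pool and more RNA per liver cell cannot be told apart, and no source used here gives how much liver each cut took in.

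Averaged over the 4 concentrations, 42 of the 51 tested genes were higher at 5 than at 4 dpf, and 2 were lower. Over all genes, 22.8% were called higher and 20.5% lower. The median log2 fold change of the 51 was 1.94, and that of all genes was 0. Both lower genes were the ones matched by spelling only, proca1 (-0.96 ± 0.11, SE) and cfdp1 (-0.44 ± 0.12), so of the 49 complement and coagulation genes tested 42 rose, 0 fell and 7 were not called (edgeR). The 24 pools at 5 dpf all lay above the 24 at 4 dpf for 1 of the 51 genes, serping1, against 0.639% of all genes, and all lay below for 0 of the 51, against 0.11%.

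**Figure D1:**
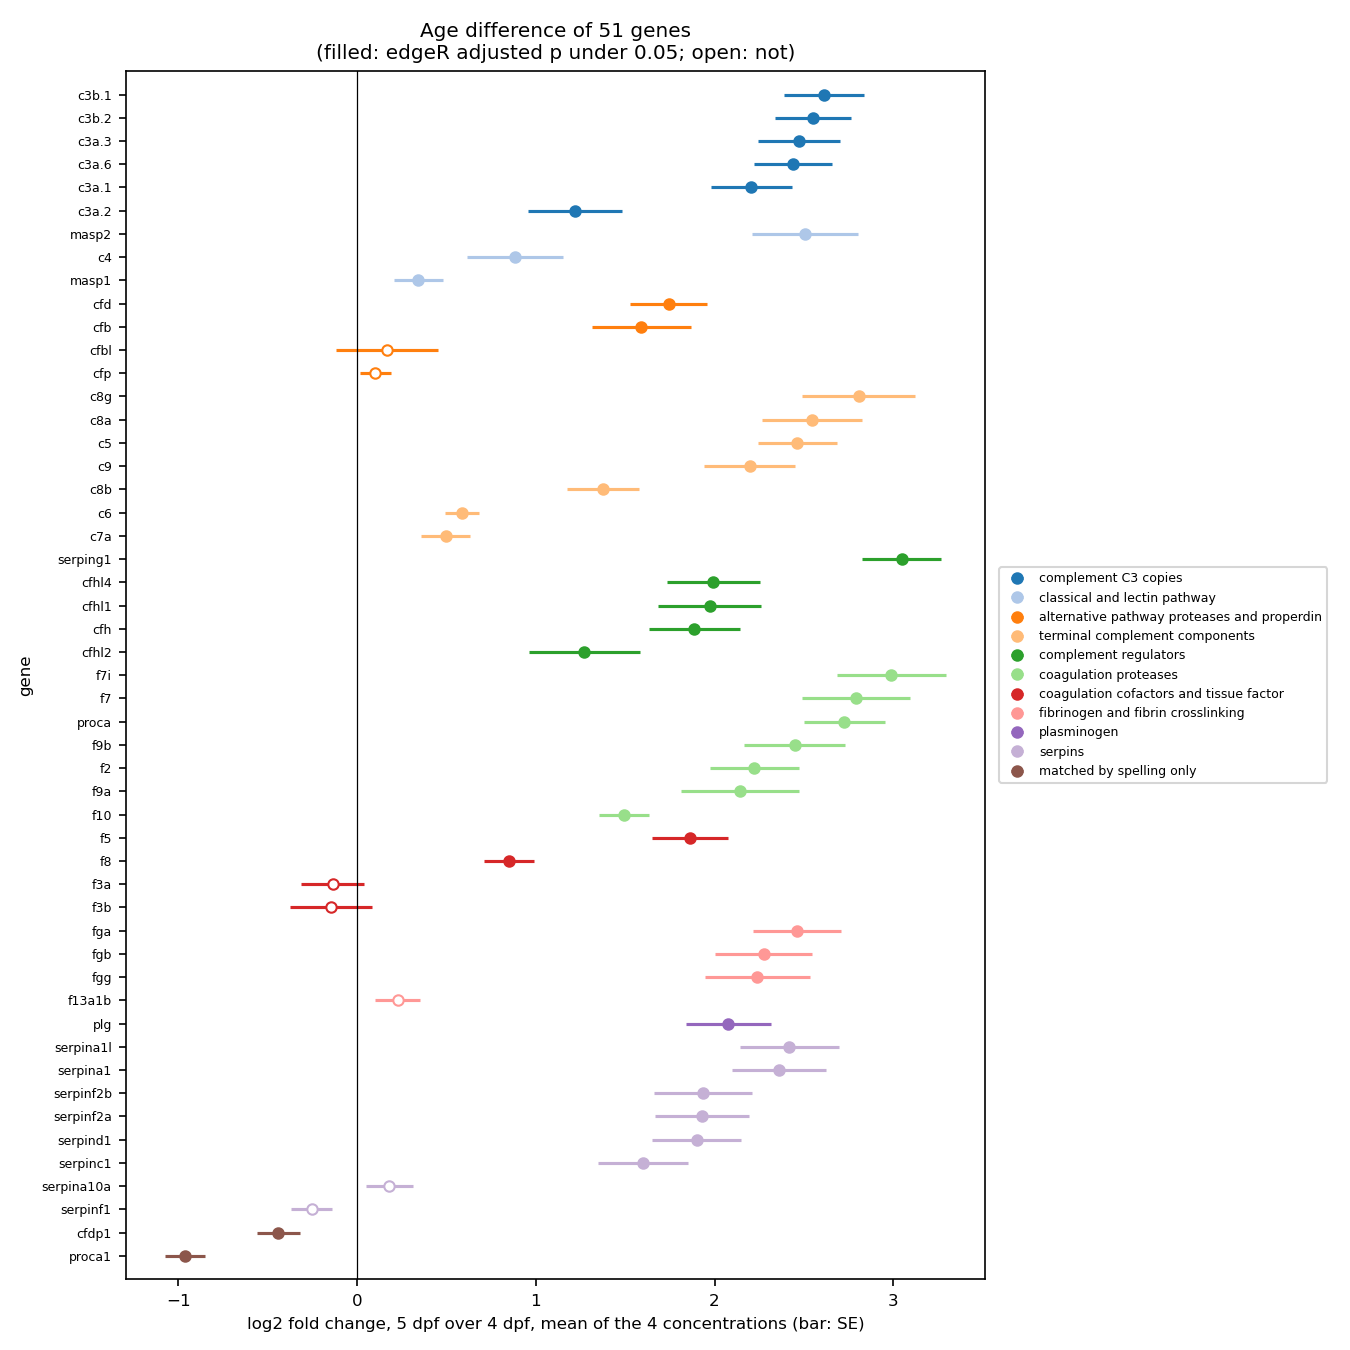
Log2 fold change of each of the 51 tested genes at 5 over 4 dpf (x axis, mean of the 4 concentrations, bars are SE), grouped and coloured by role; filled points passed an adjusted p of 0.05 in edgeR and open points did not. Most genes sit between about 1 and 3.05, while cfp, cfbl, f3a, f3b, f13a1b, serpina10a and serpinf1 lie near 0 and the genes matched by spelling only lie below it.

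All 6 tested copies of C3, the protein on which the pathways meet, rose. They lie in a pair of clusters in the GRCz11 coordinates of the deposited table, the c3a copies between chr1:56036644-56080166 (c3a.6) and chr1:56274613-56320570 (c3a.3), and c3b.1 and c3b.2 side by side at chr22:26180184-26236276 and chr22:26129250-26175238. Level of c3b.2 ran from 3.11 to 14 CPM (median 6.9) in the DMSO pools at 4 dpf and from 20.9 to 92.5 CPM (median 53.8) in those at 5 dpf. The ages did not overlap in DMSO, and over all pools 22 of the 24 at 5 dpf exceeded the highest at 4 dpf. Its log2 fold change was 2.55 ± 0.22 (5.86-fold, adjusted p = 1.47e-13). Those of c3b.1, c3a.3, c3a.6 and c3a.1 were 2.61 ± 0.22, 2.47 ± 0.23, 2.44 ± 0.22 and 2.21 ± 0.23.

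The copy c3a.2 rose less, by 1.22 ± 0.26 (adjusted p = 0.000157), and its ages overlapped, from 4.29 to 83.9 CPM at 4 dpf and from 13.7 to 109 CPM at 5 dpf. Of the values of these 6 genes, 77.1 to 100% were not whole numbers. Reads may thus have been split between the copies, and a difference between copies is uncertain. Within the groups, c3a.1 and c3a.3 kept their ratio more closely (SD of the log2 ratio 0.27) than c3a.1 and c3a.2 did (0.68).

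Among the genes that start the cascade, masp2, the lectin pathway protease that cuts C4, rose by 2.50 ± 0.30 (adjusted p = 1.64e-09). It lay between 0 and 1.08 CPM in DMSO at 4 dpf and between 1.28 and 8.3 CPM at 5 dpf, without overlap. The related protease gene masp1 rose by 0.34 ± 0.14 (adjusted p = 0.0392) and c4 by 0.89 ± 0.27 (0.00641), both with overlapping ages. The c4 gene overlaps trim3a on the other strand, and no source used here says whether counting used strand, so reads of the pair may be mixed. In the alternative pathway the protease genes cfb (factor B) and cfd (factor D) rose, by 1.59 ± 0.28 and 1.74 ± 0.22. Neither cfbl, a factor B relative beside it (0.17 ± 0.29), nor cfp, which encodes the stabilising protein properdin (0.10 ± 0.09, adjusted p = 0.355), passed the test.

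Levels of cfd were 0.116 to 0.908 CPM in the DMSO pools at 4 dpf and 0.982 to 2.58 CPM at 5 dpf, without overlap. Those of cfp were 17.2 to 28.8 CPM and 24 to 35.7 CPM, and the ages overlapped. Over all concentrations cfp ran from 15.2 to 38.7 CPM at 4 dpf and from 17.5 to 35.7 CPM at 5 dpf. There the ages of cfd overlapped too, with 0.111 to 1.75 CPM at 4 dpf and 0.982 to 4.66 CPM at 5 dpf. Of the 24 pools at 5 dpf, 12 exceeded the highest cfd level at 4 dpf.

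All 7 tested terminal components rose, but not to the same degree. The rise was 2.46 ± 0.22 for c5, 2.55 ± 0.28 for c8a, 2.81 ± 0.31 for c8g and 2.2 ± 0.25 for c9, the genes of the protein that begins the pore and of subunits that build it. It was 1.38 ± 0.20 for c8b, the gene of another C8 subunit. For c6 and c7a, whose products join the growing pore between C5 and C8, it was 0.59 ± 0.10 and 0.50 ± 0.14. In DMSO, c9 lay between 4.75 and 36.9 CPM (median 11) at 4 dpf and between 41.4 and 195 CPM (median 118) at 5 dpf. In contrast with c9, the c6 pools overlapped between ages in DMSO, with 3.67 to 8.21 CPM at 4 dpf and 6.83 to 12 CPM at 5 dpf. The genes c8a and c8b overlap on opposite strands, and the log2 ratio of c8a to c8b changed from -0.24 ± 0.82 at 4 dpf (SD, n = 24) to 0.96 ± 0.41 at 5 dpf (n = 24).

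All 5 tested regulators of complement rose. The gene with the smallest p among the 51 was serping1, the C1 inhibitor, a serpin that in mammals also blocks contact proteases (3.05 ± 0.22, 8.26-fold, adjusted p = 1.89e-15). It lay between 0.0752 and 0.665 CPM (median 0.31) in the DMSO pools at 4 dpf and between 1.37 and 12.4 CPM (median 4.77) at 5 dpf. Over all concentrations the highest pool at 4 dpf had 1.07 CPM and the lowest at 5 dpf 1.2 CPM. Factor H, the plasma brake on C3 convertase, and its relatives cfhl1, cfhl2 and cfhl4 rose by 1.89 ± 0.25, 1.97 ± 0.29, 1.27 ± 0.31 and 1.99 ± 0.26. These neighbours on chromosome 22 may share reads in part (10.4 to 87.5% of values not whole).

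All 7 tested coagulation protease genes rose. Protein C gene proca, the anticoagulant protease, rose by 2.72 ± 0.23 (6.61-fold, adjusted p = 1.01e-13), from 0.33 to 2.12 CPM in DMSO at 4 dpf to 3.93 to 17.9 CPM at 5 dpf, without overlap. Prothrombin gene f2 rose by 2.22 ± 0.25, and the factor IX genes f9a and f9b by 2.14 ± 0.33 and 2.45 ± 0.28, although f9a stayed at 1.2 CPM or less in every pool. A row of 3 neighbours on chromosome 1 differed: f7 (factor VII, chr1:119960-125247) rose by 2.79 ± 0.30 and f7i (a factor VII relative known in zebrafish as an inhibitor, chr1:127250-134080) by 2.99 ± 0.30, while f10 (factor X, chr1:135903-142470) rose by 1.5 ± 0.14 (adjusted p = 3.51e-12).

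Levels of f10 were 25.3 to 54.7 CPM in DMSO at 4 dpf and 87.6 to 206 CPM at 5 dpf, without overlap, and its pools of a group lay closer together than those of f7 (within-group SD of log2 CPM 0.49 and 1.03). The log2 ratio of f7 to f7i kept a within-group SD of 0.28, against 1.03 and 1.02 for each gene alone.

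Of the cofactors, f5 rose by 1.86 ± 0.21 (adjusted p = 7.24e-10) and f8 by 0.85 ± 0.14 (2.95e-06). The tissue factor genes f3a and f3b, which start clotting outside the vessel, gave -0.13 ± 0.18 and -0.14 ± 0.23 and passed no test. Levels of f3a ran from 0.714 to 4.66 CPM at 4 dpf and from 0.304 to 4.6 CPM at 5 dpf, nearly the same range.

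The fibrinogen chains rose together, fga by 2.46 ± 0.25 (5.51-fold, adjusted p = 1.93e-11), fgb by 2.27 ± 0.27 and fgg by 2.24 ± 0.29. In DMSO, fga lay between 5.78 and 44.8 CPM (median 14.5) at 4 dpf and between 72.9 and 291 CPM (median 174) at 5 dpf. Over all concentrations 23 of the 24 pools at 5 dpf exceeded the highest pool at 4 dpf (59.5 CPM). The genes fga and fgb are neighbours (chr1:10063501-10071540 and chr1:10051763-10059497), fgg lies apart (chr1:25669799-25679384), and within groups the log2 ratio of fga to fgb had an SD of 0.43, against 0.89 and 0.99 for each alone. By contrast f13a1b, which encodes the A subunit of the fibrin crosslinking enzyme, did not pass (0.23 ± 0.13, adjusted p = 0.141), with 51.5 to 240 CPM at 4 dpf and 53.8 to 214 CPM at 5 dpf; 85.4% of its values were not whole, and it overlaps a gene on the other strand. Plasminogen (plg), the precursor of the protease that cuts fibrin, rose by 2.08 ± 0.24.

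Of the 8 tested serpins grouped by their own role, 6 rose. These were serpina1 and serpina1l (relatives of alpha-1-antitrypsin, 2.36 ± 0.26 and 2.42 ± 0.28), serpinc1 (antithrombin, 1.60 ± 0.25), serpind1 (heparin cofactor II, 1.90 ± 0.25) and the antiplasmin genes serpinf2a and serpinf2b (1.93 ± 0.27 and 1.94 ± 0.27). The serpins that did not pass were serpina10a (named for the protein Z-dependent inhibitor, 0.18 ± 0.13) and serpinf1 (pigment epithelium-derived factor, -0.25 ± 0.11, adjusted p = 0.0659). The gene serpinf1 lies next to serpinf2a, at chr21:40106448-40120170 and chr21:40092301-40104917, and ran from 14.8 to 43.2 CPM at 4 dpf and from 9.12 to 32.9 CPM at 5 dpf. Nearly all values of serpina10a (97.9%) were not whole, and it overlaps ppp4r4 on the other strand.

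**Figure D2:**
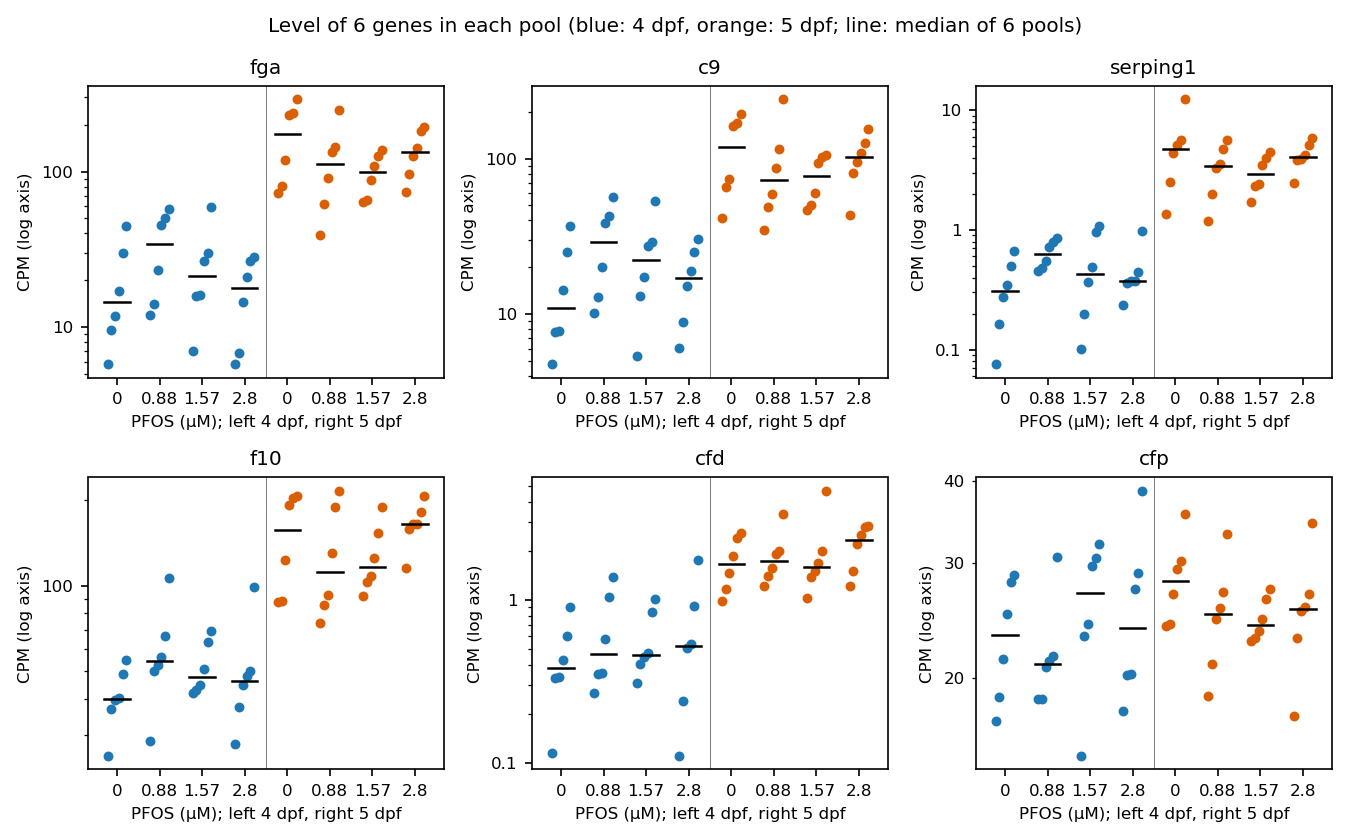
Level of fga, c9, serping1, f10, cfd and cfp in each of the 48 pools (y axis, CPM on a log scale) by PFOS concentration and age, with the median of each group of 6 pools as a line. For serping1 the highest pool at 4 dpf (1.07 CPM) lies under the lowest at 5 dpf (1.2 CPM), while for cfp the ages share the range of 17.5 to 35.7 CPM.

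In DMSO alone, 41 of the 51 were higher at 5 dpf and 1 (proca1) was lower, against 9.34% and 4.84% of all genes, with a median log2 fold change of 2.75. The 6 DMSO pools at 5 dpf all lay above the 6 at 4 dpf for 27 of the 51 genes, against 5.15% of all genes, and all lay below for 0, against 3.07%. At 0.88 µM, 25 were higher and 1 lower (8.41% and 4.34% of all genes), with a median of 1.25. At 1.57 µM, 30 were higher and 2 lower (8.98% and 6.19%), with a median of 1.59. At 2.8 µM, 37 were higher and 1 lower (7.1% and 5.27%), with a median of 2.26. The lower genes were again proca1 and, at 1.57 µM, also cfdp1. Called higher at each of the 4 concentrations were 21 of the 51 genes, against 3.94% of all genes. The hepatocyte markers had medians of 3.97 in DMSO and, by rising PFOS concentration, 2.79, 2.51 and 3.36.

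For fga, the age difference was 3.11 ± 0.50 in DMSO and 1.82 ± 0.48, 1.93 ± 0.48 and 2.98 ± 0.50 by rising PFOS concentration. For serping1 it was 3.95 ± 0.46 in DMSO and then 2.38 ± 0.43, 2.55 ± 0.44 and 3.31 ± 0.46. The count at 0.88 µM, 26 in either direction, rested on single pools: 15 genes were called without replicate G at 5 dpf and 33 without replicate B at 4 dpf. A fit of that concentration alone called 14, where calls over all genes went from 2553 to 782.

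The difference between the age effect under PFOS and in DMSO was tested itself. In edgeR, 0 of the 51 passed at 0.88, 1.57 or 2.8 µM, as did 0% of all genes. DESeq2 and limma-trend also called 0 of the 51, and DESeq2 called 5 genes of the whole table at 1.57 µM. At an unadjusted p under 0.05 there were 17 of the 51 at 0.88 µM (2.47% of all genes), 5 at 1.57 µM (4.89%) and 0 at 2.8 µM (3.82%). The medians of that difference were -1.13, -1.07 and -0.30 in the 51 genes and -1.14, -1.25 and -0.37 in the hepatocyte markers. The smallest p belonged to f9a at 0.88 µM (-2.79 ± 0.90, adjusted p = 1), a gene with under 1 CPM in most pools, to c8b at 1.57 µM (-1.41 ± 0.56, adjusted p = 0.89) and to c6 at 2.8 µM (-0.46 ± 0.27, adjusted p = 0.948). These comparisons share the DMSO pools.

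Other genes of the same systems moved with age less uniformly. Of 7 other complement genes tested, 5 rose and 0 fell (edgeR), among them clu (clusterin, 0.81 ± 0.08) and the vitronectin genes vtnb (1.35 ± 0.23) and vtna (1.48 ± 0.28), whose products restrain the terminal pathway. Of 25 other coagulation and fibrinolysis genes, 14 rose and 3 fell, against 22.8% called higher and 20.5% lower over all genes. Those with the smallest p were adamts13 (the protease that trims von Willebrand factor, 1.90 ± 0.21), kng1 (kininogen, 2.43 ± 0.27), vwf (1.17 ± 0.15) and a2ml (an alpha-2-macroglobulin relative, 1.74 ± 0.24). The genes that fell were vkorc1 (-1.0 ± 0.22) and vkorc1l1 (-0.28 ± 0.07), of vitamin K recycling, and lman1 (-0.69 ± 0.11), of export from the endoplasmic reticulum. In the same list, ggcx and mcfd2 were not among the genes called lower.

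Of 16 liver transcription factors, 10 rose and 1 fell: hnf4b, hnf4a and cebpa, known regulators of plasma protein genes, rose by 2.1 ± 0.27, 1.41 ± 0.17 and 0.86 ± 0.10, and prox1a gave -0.50 ± 0.07. Of 9 acute phase and inflammation genes, 6 rose, with crp (5.34 ± 0.44) and hp (3.57 ± 0.34) first, and irg1l fell by 3.06 on the log2 scale. Among blood cell markers, 0 of 8 macrophage markers were called (edgeR; 1 at an unadjusted p under 0.05, mpeg1.1 at -0.35 ± 0.16), and 1 of 7 neutrophil markers (lect2l, 3.29 ± 0.38) and 2 of 3 thrombocyte markers rose. Markers of other digestive organs rose as the hepatocyte markers did, 16 of 16 for exocrine pancreas and 8 of 9 for intestine, and their part in the results was not tested. Of 9 endothelium markers 4 rose and 1 fell, and of 5 kidney markers 4 rose. Of 8 fibroblast markers 2 rose and 2 fell, of 9 neuron markers 3 fell and of 6 epidermis markers 2 rose and 1 fell. Over all genes, 22.8% were called higher and 20.5% lower, so list counts near those shares say little about a cell type.

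Within a group, pools differed in hepatocyte marker level, and many of the 57 genes differed with it. In a fit with group and hepatocyte level, 37 of the 51 genes rose with that level and 0 fell (edgeR), against 2.14% and 0.0649% of all genes. Among these 37 the slope, the log2 change per log2 unit of hepatocyte level between pools of 1 group, ran from 0.36 to 1.34 with a median of 1.08. The slope of c9 (1.21 ± 0.08, adjusted p = 1.2e-15) had the smallest p of all 20021 genes. Among genes with a mean log2 CPM of at least 1, the steepest slopes were those of masp2 (1.34 ± 0.13), c8a (1.28 ± 0.12), fgb (1.27 ± 0.10), fgg (1.26 ± 0.14) and serpina1l (1.25 ± 0.10).

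All 37 were among the 42 genes that rose with age. The remaining 5 of the 42 had no called slope: cfd (0.18 ± 0.17), f8 (0.18 ± 0.11), c6 (0.17 ± 0.07), c7a (0.18 ± 0.11) and c4 (0.29 ± 0.21). Of the 7 complement and coagulation genes that did not pass the test for age, 0 had a called slope (edgeR). Under the same limit on level, the flattest were cfp (-0.04 ± 0.07), serpina10a (0.01 ± 0.10), f13a1b (0.06 ± 0.10) and f3a (0.07 ± 0.14), with cfdp1 (0.00 ± 0.09) and proca1 (0.03 ± 0.08). Between these sets lay f10, with a rise of 1.5 with age and a slope of 0.36 ± 0.09, and masp1 (0.39 ± 0.09).

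**Figure D3:**
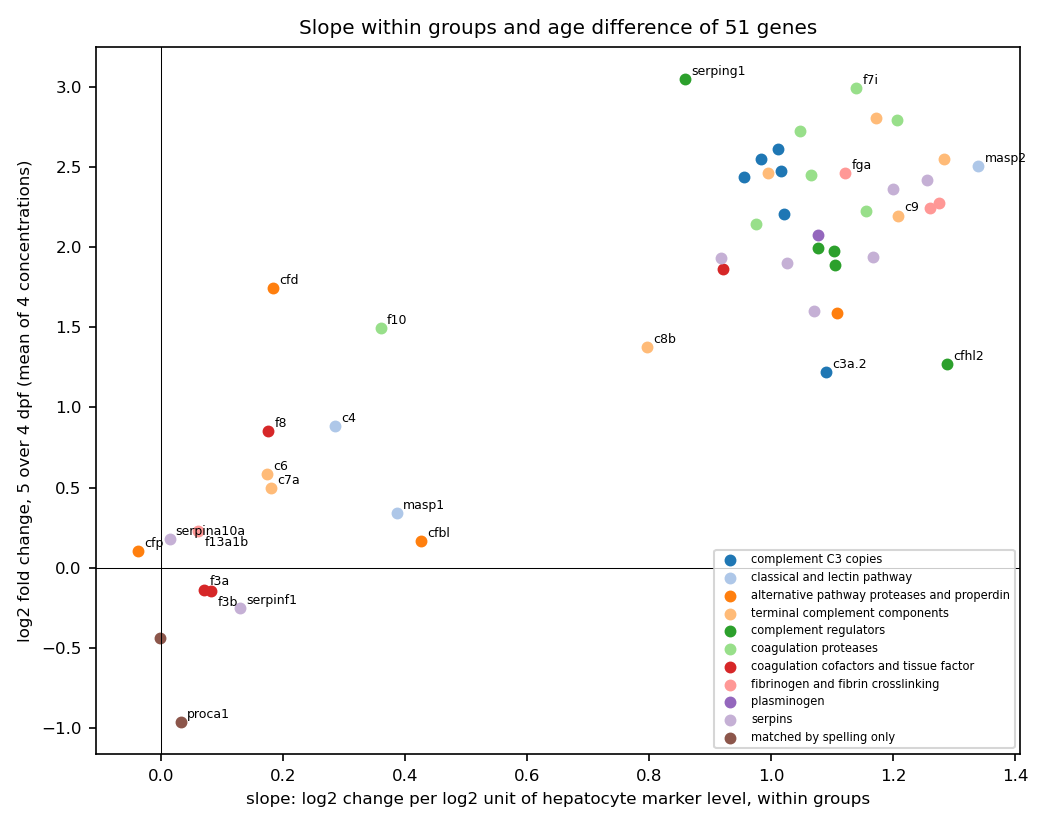
Slope on hepatocyte marker level within groups (x axis, log2 change per log2 unit) against the log2 fold change at 5 over 4 dpf (y axis) for the 51 tested genes, coloured by role. A dense set lies at slopes of about 0.8 to 1.34, and cfd, f10, f8, c6 and c7a lie to its left, with an age difference above 0 and slopes of 0.17 to 0.36.

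The 37 genes were chosen here by that slope, so how they order the pools describes the slope and does not test it. In the DMSO pools at 5 dpf, replicate E had the lowest hepatocyte level (2.85) and the lowest value for 36 of the 37 genes, and replicate I had the highest level (5.45) and the highest value for 34 of them. At 1.57 µM and 5 dpf the pools of extreme hepatocyte level held the lowest value for 18 and the highest for 3 of the 37.

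**Figure D4:**
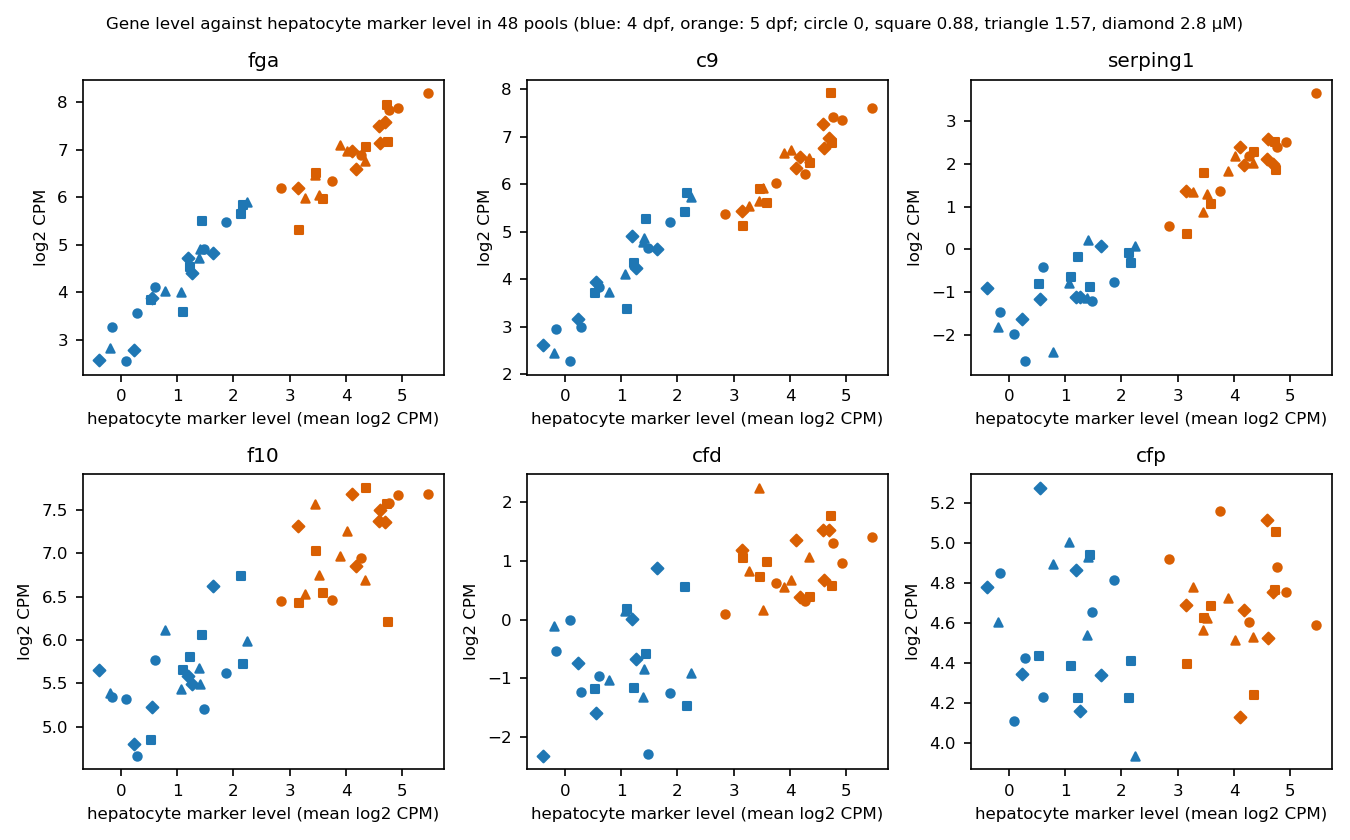
Level (y axis, log2 CPM) of fga, c9, serping1, f10, cfd and cfp against the hepatocyte marker level (x axis, mean log2 CPM of 18 markers) in the 48 pools, by age (colour) and concentration (marker shape). For fga and c9 the level climbs with the hepatocyte level within each age (slope 1.21 ± 0.08 for c9), and for cfp there is no visible slope (-0.04 ± 0.07 within groups).

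Set against the median of the hepatocyte markers, the genes rose less. None of the 51 exceeded the markers' median age difference of 3.26, and 9 of the 18 markers rose more than serping1. Single markers ran from 1.33 to 5.17, so the weaker markers rose less than many of the 51 genes. The difference between log2 CPM and hepatocyte level was lower at 5 than at 4 dpf for 36 of the 37 genes with a called slope; it went from 3.27 ± 0.39 (SD, n = 24) to 2.78 ± 0.31 (n = 24) for fga and from 3.13 ± 0.41 to 2.35 ± 0.29 for c9. The exception was f7i, with 1.37 ± 0.66 and 1.39 ± 0.66. These differences use the same levels as the age comparison and are no separate test of it.

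With the hepatocyte level as a term in the fit, 0 of the 51 genes were called higher at 5 dpf averaged over concentrations, against 1.19% of all genes, and 16, proca1 among them, were called lower, against 1.28%. Age calls were lost over the whole table with this term, from 8673 to 495 genes. The median of the 51 turned to -0.86. In DMSO alone 0 were called higher and 0 lower (edgeR), against 0.125% and 0.045% of all genes, where calls over the whole table went from 2838 to 34. The lowest values averaged over concentrations were those of cfhl2 (-2.58 ± 0.57), c3a.2 (-2.11 ± 0.47), cfb (-1.79 ± 0.50) and serpinc1 (-1.67 ± 0.41), and c9 gave -1.42 ± 0.25 (adjusted p = 0.00043). No pool has a hepatocyte level between 2.24 and 2.85, so this fit carries the slope within groups across a gap between the ages that no pool fills.

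Against DMSO of the same age, 0 of the 51 genes were called at 0.88, 1.57 or 2.8 µM PFOS at either age, nor in the trend per µM (edgeR; 0 with DESeq2 and with limma-trend too). Over all genes, 0% were called in each of these comparisons other than 1.57 µM at 5 dpf (0.0799%). At an unadjusted p under 0.05 at 4 dpf there were 8 of the 51 at 0.88 µM (1.96% of all genes), all higher, 2 at 1.57 µM (1.95%) and 0 at 2.8 µM (6%). At 5 dpf there was 1 at 0.88 µM (5.18%), 7 at 1.57 µM (5.04%), all lower, and 1 at 2.8 µM (1.92%). The trends gave 0 of the 51 at 4 dpf (6.1% of all genes) and 1 at 5 dpf (1.87%).

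The 51 genes were mostly above DMSO at 0.88 and 1.57 µM at 4 dpf, near evenly split at 2.8 µM, and mostly below DMSO at 5 dpf. At 4 dpf the median log2 fold change of the 51 was 0.66 at 0.88 µM (46 above 0), 0.37 at 1.57 µM (45 above 0) and 0.03 at 2.8 µM (26 above 0). At 5 dpf it was -0.43 (45 below 0), -0.59 (50 below 0) and -0.34 (45 below 0). The median of all genes was 0.03 or less in size in each. By rising concentration, 51, 52.8 and 53.7% of all genes were above 0 at 4 dpf and 49.6, 50.3 and 49.3% at 5 dpf. The hepatocyte markers, of which 0 of 18 were called (edgeR), had medians of 0.86, 0.36 and -0.02 at 4 dpf and -0.34, -0.74 and -0.24 at 5 dpf. Markers of the exocrine pancreas gave -0.54, 0.09 and -0.50 at 4 dpf and -3.12, -5.29 and -1.41 at 5 dpf. At 1.57 µM and 5 dpf, 12 of these 16 markers were called lower, among the 16 genes of the table called there. Those 16 calls depended on the processing. They went to 0 with the replicate letter as a block, with the groups compared alone and with limma-trend, and to 3 with hepatocyte level in the fit. They were 16 to 20 with RLE scaling, other count filters or DESeq2, and 11 without the 3 libraries of low correlation. Intestine markers gave 0.36, 0.13 and -0.06 at 4 dpf and -0.69, -1.02 and -0.43 at 5 dpf, and the part of either list in the result was not tested. With hepatocyte level in the fit the medians of the 51 were 0.06, 0.10 and 0.05 at 4 dpf and -0.17, -0.08 and -0.16 at 5 dpf. The genes move together between pools of 1 group, so such counts are not separate observations, and the comparisons at 1 age share their 6 DMSO pools.

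**Figure D5:**
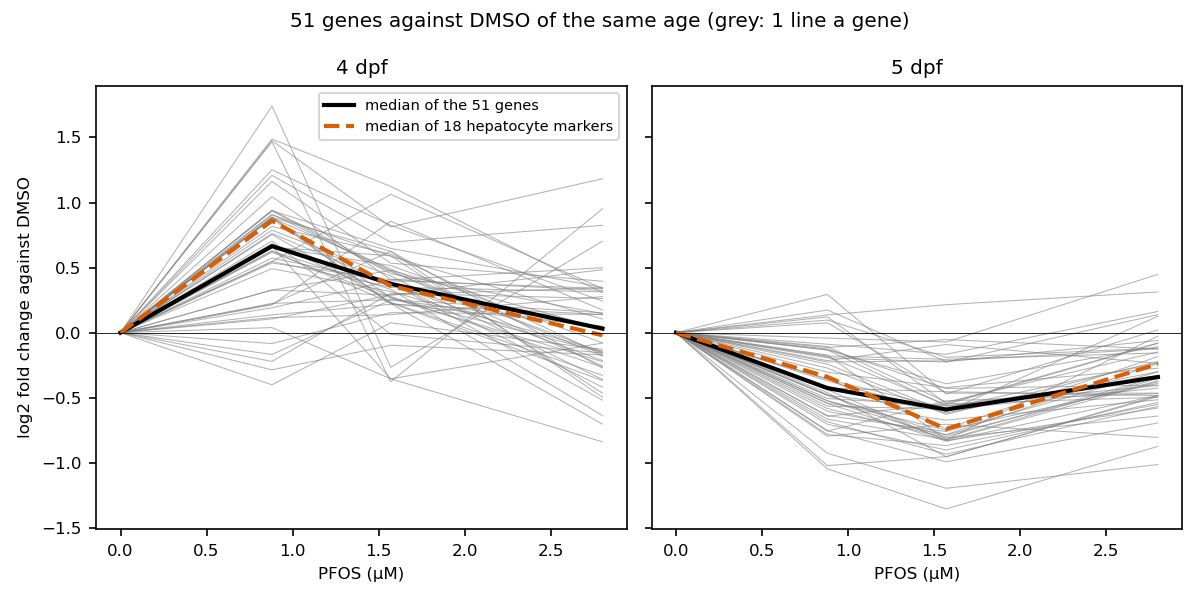
Log2 fold change against DMSO of the same age (y axis) over PFOS concentration (x axis, µM) for each of the 51 genes (grey), their median (black) and the median of 18 hepatocyte markers (dashed), at 4 and 5 dpf. The black and dashed medians lie close together at every concentration and reach 0.66 and 0.86 at 0.88 µM and 4 dpf and -0.59 and -0.74 at 1.57 µM and 5 dpf.

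For fga the difference from DMSO at 2.8 µM was -0.21 (95% interval -1.17 to 0.74) at 4 dpf and -0.34 (-1.28 to 0.60) at 5 dpf, so a change of 1 log2 unit downward lies inside both. For cfp, which did not follow hepatocyte level, the interval was narrower, 0.14 (-0.21 to 0.49) and -0.16 (-0.51 to 0.20). In all, 11 to 13 of the 51 genes at 4 dpf and 10 to 14 at 5 dpf had an interval that stayed within 1 log2 unit of 0, and the median SE was 0.49 and 0.46.

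The smallest unadjusted p at 4 dpf was that of c3a.2 at 0.88 µM (1.49 ± 0.53, adjusted p = 1 in edgeR). Its pools ran from 4.29 to 33.6 CPM in DMSO, and by rising PFOS concentration from 15.1 to 83.9, 5.04 to 51.7 and 8.68 to 36.2 CPM, overlapping throughout. Next was f7i (1.48 ± 0.59, adjusted p = 1), and at 2.8 µM f7i again (1.18 ± 0.59, adjusted p = 0.748). That value at 2.8 µM leaned on replicate A, a library of low correlation, with 31.1 CPM. The other pools of the group had 1.22 to 5.75 CPM, against 1.86 to 5.82 CPM in DMSO. Over the alternatives it ran from 0.15 to 1.39. At 5 dpf the smallest unadjusted p was that of masp1 at 1.57 µM (-0.83 ± 0.27, adjusted p = 0.821). Its pools had 0.517 to 1.28 CPM against 0.897 to 2.26 CPM in DMSO, also overlapping. At 2.8 µM masp1 gave -0.58 ± 0.27 (adjusted p = 0.992) and at 0.88 µM f9b gave -1.02 ± 0.49 (adjusted p = 0.872).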

How the data were processed

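PolyA RNA of 48 pools of 15 heads was sequenced, per the labels' protocols. The submitters' processing notes name the genome build GRCz11, Partek 8.0.19.0428 and STAR 2.5.3a; for annotation and strand setting, the sources used here name none. The authors deposited expected counts for 25377 genes (81.2% of values whole within 0.01) and a table of log2 values after quantile normalization, per the file headers; the latter served only as an alternative.

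Counts were rounded, filtered by group with filterByExpr and scaled by TMM. All 8 groups were fitted together by edgeR 4.0.16 (R 4.3.3) with no covariate and Benjamini-Hochberg adjustment over 20021 genes. SE was taken as log2 fold change divided by root F, and 95% intervals use t at 40 degrees of freedom (2.02 SE). Intervals cover the spread between pools, and reads carried no molecular identifiers. Hepatocyte level is the mean log2 CPM (prior count 2) of 18 markers. The fit was tested on simulated data.

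Members and lists were chosen with earlier results of these data known. Genes given with full statistics were the 10 with the smallest p in each direction for age, the leading 2 by p in each concentration, trend or interaction comparison, the 6 steepest and 6 flattest slopes at a mean log2 CPM of 1 or more, and up to 4 of each other list; other values are given by role. Genes c6, c7a, c4, f8 and cfd in the slope comparison were named after their values were seen. Alternatives were RLE scaling, no filter, 1 CPM in 6 libraries, DESeq2 1.42.0, limma-trend (limma 3.58.1), the groups compared alone, the replicate letter as a block, each library left out, 3 libraries left out, and hepatocyte level as a term. No value was taken from reads, and promoter and protein sequences were not analysed here.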

Additional observations from a re-analysis of the deposited data

Results flagged for a closer look

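The level of c3b.2, a C3 copy, in replicate C of 1.57 µM PFOS at 4 dpf was 1.49 log2 CPM, far below the other 5 pools of its group, of which the nearest was 2.92 and the group median 3.24. Its gap to the nearest pool was 0.705 of the group's range, above the 95% critical value of 0.625 for 6 samples. This was 1 flag in 96 groups tested, and chance flags about 1 in 20 groups. The same pool had the lowest hepatocyte marker level of its group, -0.20, and the lowest value for 34 of the 37 genes that followed that level.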

How the results depend on the processing

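With hepatocyte level as a term, the genes called for age fell from 44 to 16 averaged over concentrations and from 42 to 0 in DMSO. They fell from 26 to 15 at 0.88 µM, from 32 to 6 at 1.57 µM and from 38 to 2 at 2.8 µM. Without the term, 42, 41, 25, 30 and 37 were called higher, in that order. With the term, 0 were called higher in each comparison, and the remaining 16, 15, 6 and 2 were all called lower. Over all genes, calls fell from 8673 to 495, 2838 to 34, 2553 to 212, 3037 to 403 and 2477 to 189. This fit carries the slope within groups across the gap in hepatocyte level between the ages, from 2.24 to 2.85, that no pool fills. With the term, the age difference turned negative for genes that had risen, mostly without a call. Averaged over concentrations it was -0.46 for proca, -0.52 for c3b.2, -0.45 for c3b.1, -0.59 for c5 and -0.46 for c3a.6. It was -0.59 for c3a.3, -0.86 for fga and -0.36 for f7i. Of these only fga was called (adjusted p = 0.0448, edgeR), and the others had an adjusted p of 0.285 (c3a.3) to 0.746 (f7i). In DMSO, with 0 called, it was -0.34 for proca, -0.44 for c5, -0.65 for c3b.2 and -0.43 for c3a.3. There it was -0.69 for c3b.1, -0.58 for c3a.6, -0.84 for fga and -0.29 for f7i. The gene serping1 went from 3.05 to 0.37 averaged over concentrations and lost its call. A fit of 0.88 µM alone called 14, where calls over all genes went from 2553 to 782. Leaving out 1 library there gave 15 to 33, and the cause was not tested. Leaving out 1 library gave 43 to 45 genes averaged over concentrations, 39 to 43 in DMSO, 24 to 35 at 1.57 µM, 34 to 38 at 2.8 µM and 36 to 37 for the slope.

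Pools with the same replicate letter and age, taken as deviations from their group means, had a median r of 0.057 over 49 pairs, from -0.418 to 0.532. Pools of the same age with different letters had a median r of -0.003 over 383 pairs. No source used here says what the letters stand for, so these values cannot tell whether pools of 1 letter share an origin. Replicate I had the highest hepatocyte level of every group at 5 dpf (5.45 in DMSO, then 4.74, 4.33 and 4.69 by rising PFOS concentration). At 4 dpf the highest was replicate I in DMSO (1.86), B at 0.88 µM (2.17) and A at 1.57 and 2.8 µM (2.24 and 1.63). The 1.57 µM group at 4 dpf held no replicate I. The lowest was in replicate C, D, E or F. Whether the letter goes with hepatocyte level was not tested. With the letter as a replicate block, 45, 41, 28, 34 and 37 genes were called for age in the same order and 35 for the slope. Over all genes the block gave 8855, 2595, 2569, 2685 and 2617 calls for age and 330 for the slope.

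Slopes near 0 changed sign: cfdp1 gave 0.00 with 1 CPM in 6 libraries and with DESeq2 and 0.03 without the 3 libraries of low correlation, and proca1 gave -0.01 with the block and with limma-trend, serpina10a -0.01 and cfp 0.12 with the block. Leaving out 1 library moved these slopes from -0.05 to 0.03 for cfdp1, from -0.06 to 0.01 for cfp and from -0.04 to 0.07 for serpina10a. The concentration, trend and interaction comparisons called 0 of the 51 genes under every alternative run. The promoter search planned for these genes was not run. With 6 pools a group, the median SE of a comparison with DMSO was 0.46 to 0.49.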
